A study of Mus musculus with 15 samples.

Results

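The antioxidant and redox genes are 40 genes that were chosen by symbol for their known roles in peroxide removal, in the thioredoxin and glutathione systems and in the control of these systems. All 40 were found among the 35533 gene symbols of the table, and 39 passed the filter on low counts. Their levels were followed in bulk RNA-seq libraries of hematopoietic stem cells (HSCs), sorted by flow cytometry from mouse bone marrow (the gate was Lin-Sca1+c-Kit+, then CD150+CD48-). There were 15 libraries from untreated mice, 3 of each of 5 genotypes. Gfi1-WT mice carry murine Gfi1, and GFI1-KI mice (named GFI1-36S in the sample titles) carry human GFI1 in its place. GFI1-KD mice carry human GFI1 whose expression is kept low by a Neo cassette placed in the opposite direction, Gfi1-KO mice lack Gfi1, and GFI1-36N mice carry a human variant allele of GFI1. All the modified alleles were homozygous. Human GFI1 is therefore shared by GFI1-KI, GFI1-KD and GFI1-36N, and the murine transcript set used for quantification does not hold it. The age and sex of the mice, and whether a library came from 1 mouse or from several, are not given in the sources used here, so that p-values measure the spread between these libraries.

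GFI1 is a zinc finger protein that silences its target genes and is known for its part in blood formation. HSCs of the bone marrow are mostly quiescent and are known to keep reactive oxygen species low. Superoxide is turned into hydrogen peroxide by superoxide dismutases, and peroxide is removed by catalase, by glutathione peroxidases and by peroxiredoxins. Peroxiredoxins are recharged by thioredoxin and thioredoxin reductase, and glutathione peroxidases by glutathione and glutathione reductase, both at the cost of NADPH. NRF2 (Nfe2l2), held back by KEAP1, and the FOXO factors are transcription factors that drive many of these genes, and FOXO3 is known to be needed for HSC maintenance.

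Levels are given as CPM, the share of a gene in the estimated counts of its library after scaling between libraries. Libraries held 16.2 to 20.6 M estimated counts (median 18.0 M). At least 10 of 15 HSC marker genes were above 1 CPM in every library. Columns of values carry only a number, and they were matched to the labels by that number, so a genotype here is what the label of a library says. Reads of murine Gfi1 do not follow the genotypes, with 0 to 0.276 CPM in Gfi1-WT and 0 to 6.25 CPM in Gfi1-KO. Several libraries stood apart. In GFI1-36N replicate 3, 38.7% of the tested genes were at 0, followed by 23.3% in GFI1-KD replicate 1. Gfi1-KO replicate 2 had the highest sums of granulocyte markers (3403 CPM, next highest 1361), of mast cell and basophil markers (1883 CPM, next highest 377) and of erythroid markers (1514 CPM, next highest 569), the next highest being GFI1-KI replicate 2 in all 3, and it had the lowest sum of HSC markers (1316 CPM, highest 3892), and 502 CPM of the excluded marker Cd48 (next highest 46.2). Gfi1-KO replicate 3 had the highest sum of megakaryocyte markers (3347 CPM, next highest 1534). Reads of Y-linked genes summed to 195 to 669 CPM in 4 libraries (GFI1-KD replicates 1 and 3, GFI1-36N replicates 1 and 2) and to 5.95 to 17.7 CPM in the other 11. In bulk samples, fewer cells of a type and less RNA per cell cannot be told apart.

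Several abundant enzymes of peroxide removal were counted in every library. Other genes, among them Gsr, Gclc, Nfe2l2 and Keap1, were counted in some libraries and not in others. Of the 40 genes, 27 were above 0 in all 15 libraries, 20 were over 10 CPM in all, and 9 were over 100 CPM in all: Gpx1, Prdx1, Prdx2, Prdx6, Txn1, Txn2, Glrx3, Gstp1 and Hmox2. The other 13 were at 0 in 1 or more libraries. Summed over the 40 genes, the level ranged from 5007 to 7494 CPM between libraries (median 5806 CPM). Scaled by transcript length, the highest mean levels were those of Gpx1 (1034 CPM per kb), Prdx1 (590), Prdx6 (474), Prdx2 (344) and Txn1 (322), all in CPM per kb.

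**Figure D1:**
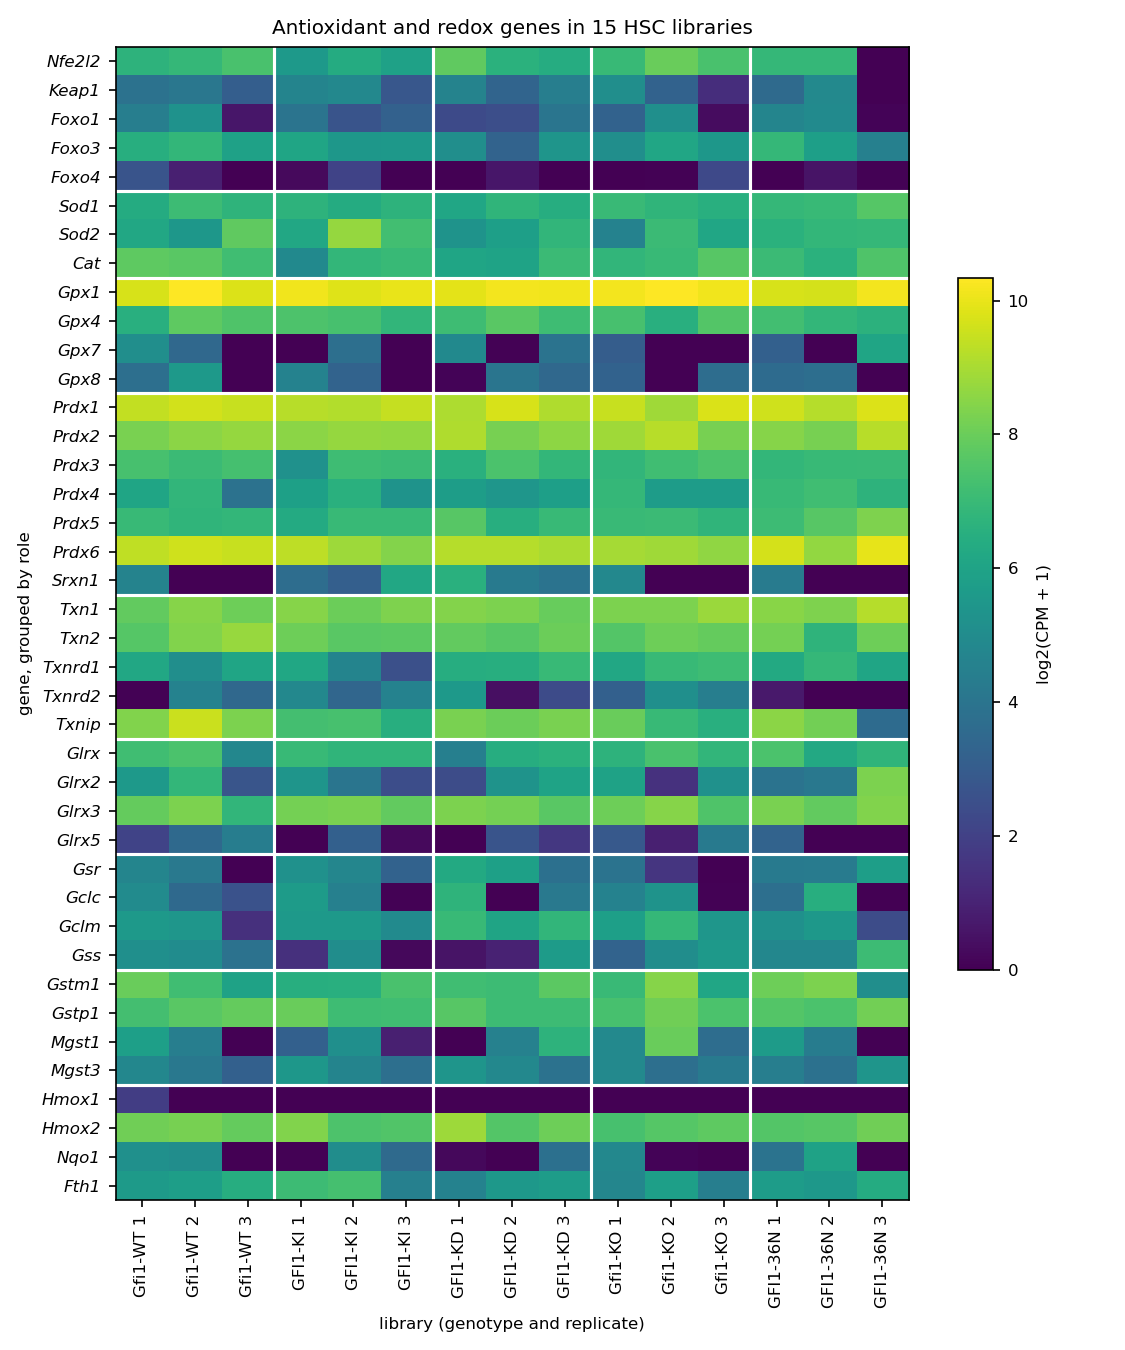
Level of the 40 antioxidant and redox genes (rows, grouped by role, white lines between roles) in 15 HSC libraries (columns, by genotype and replicate), as log2(CPM + 1) from dark (0) to yellow. Gpx1, Prdx1 and Prdx6 are bright in every library, Hmox1 is at 0 in 14 of 15 libraries, and GFI1-36N replicate 3 has 10 genes at 0.

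Short sequences around the starts of Txnrd1, Gclm, Prdx1 and Txnip that match the element read by NRF2 or by FOXO factors are shown. The other genes with a match are named only. Promoter windows (250 bases before to 50 bases after a start, RefSeq, GRCm38.p6) were found for 35 of the 40 genes. The antioxidant response element was searched as TGACNNNGC on both strands. It was found in windows of 7 of 35 genes (20.0%): Gclm, Mgst1, Nfe2l2, Prdx1, Sod1, Srxn1 and Txnrd1, against 13.99% of all 27025 genes with a window. The FOXO site, searched as TGTTTAC on both strands, was found in 2 of 35 genes (5.71%), Glrx2 and Txnip, against 4.05% of all genes. The AP-1 site, searched as TGACTCA on both strands, was found in 4 of 35 genes (11.4%), Glrx, Gstp1, Prdx1 and Srxn1, against 5.95% of all genes, and it can overlap the antioxidant response element, as it does in Prdx1. A match is a description of letters and not a site of binding. The Txnrd1 match lies before a start inside the gene, whose own coordinates begin at 82833951 on chromosome 10. Each sequence below is written 5′ to 3′ on the strand of its gene, with the matched letters in capitals, which read the element on the opposite strand.
Txnrd1, chr10:82859074-82859162, match 92 bases before the start: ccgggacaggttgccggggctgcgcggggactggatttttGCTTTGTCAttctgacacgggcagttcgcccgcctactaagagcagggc
Gclm, chr3:122245383-122245471, match 134 bases before the start: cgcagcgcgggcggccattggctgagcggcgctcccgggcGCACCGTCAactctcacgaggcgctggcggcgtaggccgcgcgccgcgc
Prdx1, chr4:116685426-116685514, match 133 bases before the start: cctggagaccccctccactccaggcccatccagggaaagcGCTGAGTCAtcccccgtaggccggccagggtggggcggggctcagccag
Txnip, chr3:96557796-96557882, FOXO match 121 bases before the start: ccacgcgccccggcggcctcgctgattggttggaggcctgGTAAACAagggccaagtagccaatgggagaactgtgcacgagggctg

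Of the regulators, Nfe2l2 (ENSMUSG00000015839, chromosome 2, 75675513 to 75704641, GRCm38), which encodes NRF2, was at 102.3, 118 and 165 CPM in Gfi1-WT, at 46.7, 81.1 and 59.4 CPM in GFI1-KI, at 225, 95.1 and 84.8 CPM in GFI1-KD, at 124, 248 and 165 CPM in Gfi1-KO and at 118, 117 and 0 CPM in GFI1-36N. By gene, the 3 GFI1-KI libraries were below every library of the other genotypes except GFI1-36N replicate 3, in which no Nfe2l2 was counted. With transcripts summed, GFI1-KI replicate 2 was at 87.1 CPM and GFI1-KD replicate 3 at 85.2 CPM, so these 2 genotypes overlapped. Foxo3, the FOXO factor of quiescent HSCs, was at 88.6, 113 and 59.5 CPM in Gfi1-WT, 65.9, 43.7 and 44.4 CPM in GFI1-KI, 33.5, 8.68 and 41.1 CPM in GFI1-KD, 34.0, 69.1 and 43.1 CPM in Gfi1-KO and 118, 56.7 and 21.9 CPM in GFI1-36N. Its 3 GFI1-KD libraries lay below the 3 of GFI1-KI, the nearest at 41.1 against 43.7 CPM, and the Gfi1-KO and Gfi1-WT libraries overlapped. Keap1, the inhibitor of NRF2, had lower levels of 0 to 33.2 CPM. Foxo1 reached 37.5 CPM at most and Foxo4 reached 5.51 CPM, with 6 libraries of Foxo4 at 0.

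Of the enzymes that act on superoxide and on bulk peroxide, Sod1, the cytosolic superoxide dismutase, was steady, between 69.1 and 194 CPM in 15 libraries. Cat (catalase, chromosome 2, 103453849 to 103485160) was at 217, 207 and 142 CPM in Gfi1-WT, 29.4, 113 and 123 CPM in GFI1-KI, 67.2, 62.2 and 131 CPM in GFI1-KD, 112, 124 and 202 CPM in Gfi1-KO and 132, 96.9 and 180 CPM in GFI1-36N. All 3 Gfi1-WT libraries were above all 3 of GFI1-KI, while the other genotypes overlapped their controls. Sod2, the mitochondrial superoxide dismutase (chromosome 17, 13006846 to 13040063), was at 71.9, 44.0 and 225 CPM in Gfi1-WT, 71.9, 417 and 146 CPM in GFI1-KI, 39.2, 56.6 and 111 CPM in GFI1-KD, 23.2, 133 and 68.5 CPM in Gfi1-KO and 95.4, 116 and 118 CPM in GFI1-36N. One library, GFI1-KI replicate 2, was far above the rest, and the levels of all genotypes overlapped. That library had the second highest sums of granulocyte (1361 CPM), mast cell and basophil (377 CPM) and erythroid markers (569 CPM), whose part in the Sod2 value was not tested. The value by gene of Sod2 also depended on which of its transcripts were counted. With the transcripts' own values summed, the GFI1-KI libraries were at 51.6, 191 and 78.4 CPM and the GFI1-KD libraries at 68.6, 56.2 and 88.7 CPM. On that scale all 3 GFI1-KD libraries lay above GFI1-KI replicate 1 and below GFI1-KI replicate 2.

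The glutathione peroxidases reduce peroxides with glutathione. Gpx1, the cytosolic enzyme (chromosome 9, 108338903 to 108340343), was the most abundant of the 40 genes, with 840, 1298 and 895 CPM in Gfi1-WT, 1127, 905 and 1022 CPM in GFI1-KI, 968, 1153 and 1118 CPM in GFI1-KD, 1158, 1276 and 1105 CPM in Gfi1-KO and 830, 823 and 1128 CPM in GFI1-36N. Levels overlapped between all genotypes, and it had the smallest standard error of a log2 fold change (0.18 on the log2 scale). Gpx4, which reduces lipid peroxides, was at 89.99 to 218 CPM, but 74.1% of the 31-base words of its leading transcript also occur in other genes, mostly in the pseudogene Gpx4-ps2 (mean 77.1 CPM), so its level is uncertain. Gpx7 and Gpx8, of the endoplasmic reticulum, were at or near 0 in several libraries and reached 67.2 and 47.02 CPM.

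Peroxiredoxins are thiol peroxidases. Prdx1, a cytosolic member, was at 461 to 881 CPM, with every genotype overlapping its control, and Prdx2, the peroxiredoxin also known for its abundance in red cells, at 294 to 607 CPM, with its highest library Gfi1-KO replicate 2. That library also had the highest erythroid marker sum, whose part in the value was not tested. Prdx6, which uses glutathione and also has phospholipase activity (ENSMUSG00000026701, chromosome 1, 161240112 to 161251219), was at 647, 775 and 708 CPM in Gfi1-WT, 643, 452 and 342 CPM in GFI1-KI, 584, 579 and 526 CPM in GFI1-KD, 489, 469 and 393 CPM in Gfi1-KO and 820, 405 and 983 CPM in GFI1-36N. All Gfi1-KO and all GFI1-KI libraries were below all Gfi1-WT libraries, and of the GFI1-36N libraries 2 were above every library of the other genotypes and 1 was below every Gfi1-WT library. With transcripts summed, GFI1-KI replicate 1 (669 CPM) was above Gfi1-WT replicate 1 (637 CPM), and the Gfi1-KO libraries stayed below Gfi1-WT. Of the Prdx6 reads, 50.4% were assigned to a transcript annotated as subject to nonsense-mediated decay (45.0 to 61.9% in single libraries) and 26.9% to protein-coding transcripts (22.7 to 33.5%).

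Prdx5, found in mitochondria and peroxisomes, was at 124, 107 and 115 CPM in Gfi1-WT, 79.2, 126 and 124 CPM in GFI1-KI, 201, 88.9 and 124 CPM in GFI1-KD, 128, 130 and 107 CPM in Gfi1-KO and 136, 199 and 325 CPM in GFI1-36N. By gene, the GFI1-36N libraries were all above those of GFI1-KI, the highest being GFI1-36N replicate 3, the library with the most genes at 0. With transcripts summed, GFI1-36N replicate 1 (133 CPM) was below GFI1-KI replicate 3 (136 CPM), so they overlapped. Prdx3, the mitochondrial peroxiredoxin, was at 36.1 to 177 CPM, and Prdx4, that of the endoplasmic reticulum, at 13.8 to 145 CPM. Srxn1, sulfiredoxin, which repairs overoxidized peroxiredoxins, was at 0 in 6 libraries and reached 94.7 CPM in GFI1-KD replicate 1.

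In the thioredoxin system, Txn1, the cytosolic thioredoxin, was at 231 to 580 CPM and Txn2, the mitochondrial one, at 106 to 432 CPM, both overlapping between genotypes. Txnrd1, the cytosolic thioredoxin reductase and the gene of the first sequence above (ENSMUSG00000020250, chromosome 10, 82833951 to 82897712), was at 72.6, 33.8 and 67.2 CPM in Gfi1-WT, 70.7, 24.1 and 4.79 CPM in GFI1-KI, 87.2, 89.6 and 123 CPM in GFI1-KD, 73.3, 123 and 141 CPM in Gfi1-KO and 77.5, 119 and 67.0 CPM in GFI1-36N. The GFI1-KD libraries were all above those of GFI1-KI and the Gfi1-KO libraries all above those of Gfi1-WT, in the latter case by less than 1 CPM between the nearest libraries. Txnip, the inhibitor of thioredoxin and a brake on glucose uptake (ENSMUSG00000038393, chromosome 3, 96557957 to 96561883), was at 335, 722 and 315 CPM in Gfi1-WT, 149, 162 and 89.4 CPM in GFI1-KI, 304, 261 and 305 CPM in GFI1-KD, 253, 125 and 91.2 CPM in Gfi1-KO and 377, 283 and 11.2 CPM in GFI1-36N. The controls Gfi1-WT and GFI1-KI did not overlap, the GFI1-KD libraries were all above GFI1-KI, and the Gfi1-KO libraries were all below Gfi1-WT. The same separations held when the values of its transcripts were summed, with 176 to 290 CPM in GFI1-KD against 95.4 to 133 CPM in GFI1-KI, and 94.1 to 257 CPM in Gfi1-KO against 348 to 668 CPM in Gfi1-WT. Gfi1-KO replicate 3, the library with the highest megakaryocyte marker sum, had the highest Txnrd1 value of all libraries and the lowest Txnip value of Gfi1-KO. The part of those markers' cells in both values was not tested. Txnrd2, the mitochondrial reductase (chromosome 16, 18426384 to 18479073), was at 0.0447, 22.7 and 10.3 CPM in Gfi1-WT, 27.2, 9.72 and 23.2 CPM in GFI1-KI, 47.1, 0.359 and 4.11 CPM in GFI1-KD, 7.92, 34.5 and 20.3 CPM in Gfi1-KO and 0.649, 0 and 0 CPM in GFI1-36N. It was scattered within Gfi1-WT and GFI1-KD and at or near 0 in GFI1-36N.

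**Figure D2:**
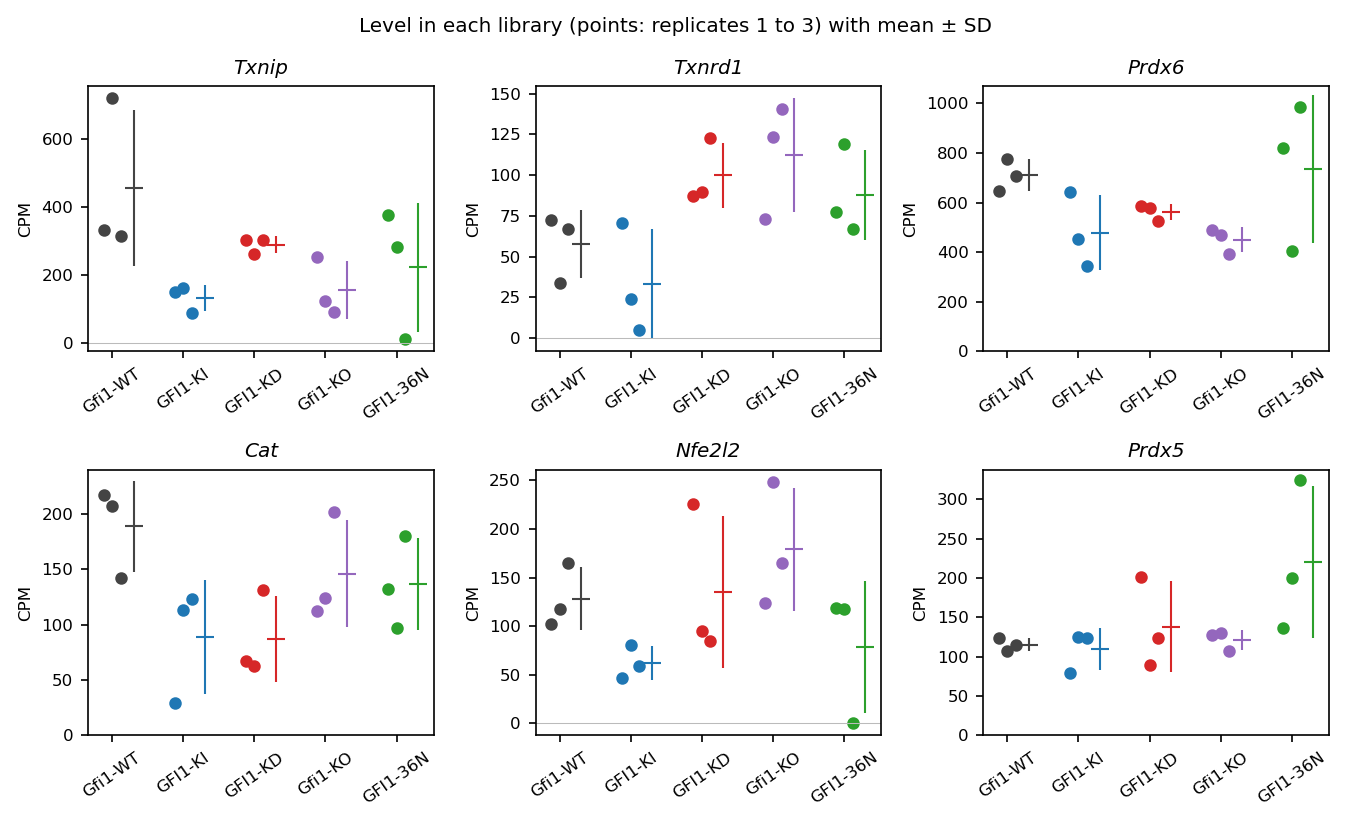
Level of Txnip, Txnrd1, Prdx6, Cat, Nfe2l2 and Prdx5 in CPM (linear axis from 0) by genotype, with points for replicates 1 to 3 and the mean ± SD (n = 3) beside them. Txnip of GFI1-KD (261 to 305 CPM) lies above GFI1-KI (89.4 to 162 CPM), and Txnip of Gfi1-KO (91.2 to 253 CPM) lies below Gfi1-WT (315 to 722 CPM).

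Glutaredoxins reduce disulfides with glutathione or carry iron-sulfur clusters. Glrx3, of the latter kind, was at 110 to 352 CPM, but it shares 50.6% of its 31-base words with the copy Gm12669, listed at a mean of 0.739 CPM. Glrx, the cytosolic glutaredoxin, was at 20.9 to 171 CPM, with the GFI1-KD libraries (20.9, 85.3 and 95.2 CPM) all below those of GFI1-KI (123, 107 and 109 CPM). Glrx2 was listed by gene at 316 CPM in GFI1-36N replicate 3 and at 1.74 to 115 CPM in the others. Before scaling between libraries that value was 289 CPM of the library total in the table by gene and 48.1 CPM in the table of transcripts, so the high value was one of the table by gene.

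Glutathione is made by the glutamate-cysteine ligase, of the catalytic subunit Gclc and the modifier subunit Gclm, and by glutathione synthetase, Gss, and it is regenerated by its reductase, Gsr. Gclm (chromosome 3, 122245557 to 122270732) was at 46.6, 42.0 and 1.71 CPM in Gfi1-WT, 47.4, 47.7 and 30.2 CPM in GFI1-KI, 125, 64.6 and 110 CPM in GFI1-KD, 56.1, 119 and 42.3 CPM in Gfi1-KO and 35.2, 44.8 and 4.22 CPM in GFI1-36N. The GFI1-KD libraries were all above those of GFI1-KI by gene. With transcripts summed they were at 127, 56.3 and 61.5 CPM against 70.2, 57.0 and 11.9 CPM in GFI1-KI, and they overlapped. Gclc, Gss and Gsr were scattered, each under 1 CPM in 1 or more libraries and with highest values of 104, 135 and 77.9 CPM.

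Glutathione transferases join glutathione to foreign or oxidized compounds. Gstm1 was at 33.5 to 350 CPM and Gstp1 at 134 to 284 CPM. They share 34.3% and 67.5% of their 31-base words with other genes of the family, and Gstp2, the closest to Gstp1, was at a mean of 0.195 CPM. Mgst1, the microsomal enzyme, was at 254 CPM in Gfi1-KO replicate 2 and at 0 to 101 CPM in the other libraries. Gstm1 also had its highest level in that library, which had the highest granulocyte and mast cell marker sums, whose part in both values was not tested. Of the enzymes of heme, quinone and iron, Hmox2, the constitutive heme oxygenase, was at 161 to 458 CPM. Hmox1, the inducible heme oxygenase, was at 2.71 CPM in Gfi1-WT replicate 1 and at 0 in the other 14 libraries, and was the gene that did not pass the filter. Nqo1, a quinone reductase and a usual target of NRF2, reached 60.4 CPM and was at 0 in 4 libraries. Fth1, the ferritin heavy chain, was at 136, 154 and 21.4 CPM in GFI1-KI and at 20.3 to 85.8 CPM in the other genotypes.

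To ask whether low GFI1 moved these genes, GFI1-KD was compared with GFI1-KI, which carries human GFI1 without the cassette. No gene of the 39 changed at an adjusted p under 0.05 (edgeR's quasi-likelihood test, Benjamini-Hochberg adjustment over 13358 genes), and 0% of all genes were called. At an unadjusted p under 0.05 there were 0 of 39, against 2.49% of all genes. Higher values were fitted for 22 and lower ones for 17, with a median log2 fold change of 0.03 (0 over all genes). In 4 genes (Gclm, Nfe2l2, Txnip and Txnrd1) all GFI1-KD libraries were higher than all GFI1-KI libraries (4.06% of all genes), and in 2 (Foxo3 and Glrx) all were lower (5.08% of all genes). With transcripts summed, the libraries overlapped for Gclm and Nfe2l2. The fitted log2 fold change was 1.59 for Txnrd1 (SE 0.77, unadjusted 95% interval −0.07 to 3.25, edgeR adjusted p = 1), but 2.81 without GFI1-KI replicate 1 and 1.06 without GFI1-KI replicate 3. It was 1.12 for Txnip (SE 0.81, interval −0.63 to 2.87, edgeR adjusted p = 1) and became 0.10 when the presence of Y-linked reads was added to the fit. Without GFI1-36N replicate 3, at 11.2 CPM the lowest Txnip library and the only one of GFI1-36N with few Y-linked reads, that fit gave 0.97. There only GFI1-KD holds libraries of both kinds, so its value is that of replicate 2 alone, at 261 CPM. All GFI1-KI libraries had few Y-linked reads and GFI1-KD replicates 1 and 3 had many, so Y-linked reads and genotype cannot be told apart. For Sod2 it was −1.62 (SE 0.81, interval −3.36 to 0.13, edgeR adjusted p = 1), but −0.66 without GFI1-KI replicate 2 and −0.59 with transcripts summed. For Fth1 it was −1.40 (SE 0.76, interval −3.04 to 0.24, edgeR adjusted p = 1). For the most abundant genes the intervals were narrow, at −0.31 to 0.48 for Gpx1, −0.50 to 0.58 for Prdx1 and −0.67 to 0.55 for Txn1. By role, all 4 genes of glutathione synthesis and reduction had higher values (0.59 to 1.25 on the log2 scale, none called), and 6 of 7 peroxiredoxins and sulfiredoxin had higher values (−0.33 to 0.47, none called). Over all genes 49.8% had higher values. In other roles higher values were fitted for 3 of 4 glutathione peroxidases, 3 of 4 glutathione transferases, 3 of 5 genes of the thioredoxin system, 1 of 5 redox regulators, 1 of 4 glutaredoxins, 1 of 3 heme, quinone and iron enzymes and 0 of 3 superoxide dismutases and catalase.

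To ask about loss of Gfi1, Gfi1-KO was compared with Gfi1-WT. No gene of the 39 changed at an adjusted p under 0.05 (edgeR, 0% of all genes). At an unadjusted p under 0.05 there was 1 of 39, Prdx6, against 3.07% of all genes. Its log2 fold change was −0.66 (SE 0.29, unadjusted 95% interval −1.29 to −0.02, edgeR adjusted p = 1), and with transcripts summed it was −0.59 (SE 0.29), where no gene of the 39 had an unadjusted p under 0.05. Higher values were fitted for 20 genes and lower ones for 19, with a median log2 fold change of 0.0011 (−0.03 over all genes). All Gfi1-KO libraries were higher than all Gfi1-WT libraries for 1 gene, Txnrd1 (4.04% of all genes), and lower for 3, Hmox2, Prdx6 and Txnip (4.93% of all genes). Txnip had a log2 fold change of −1.55 (SE 0.82, interval −3.31 to 0.22, edgeR adjusted p = 1) and Txnrd1 of 0.96 (SE 0.76, interval −0.68 to 2.59, edgeR adjusted p = 1). Without Gfi1-WT replicate 2, its highest library, the value of Txnip was −1.02. Gclm was fitted at 1.27 (SE 1.04, edgeR adjusted p = 1) by gene, at 0.74 without Gfi1-WT replicate 3 or without Gfi1-KO replicate 2, and at −0.35 with transcripts summed, the opposite direction. By role, all 4 glutathione transferases had higher values (0.0011 to 1.95) and all 3 tested heme, quinone and iron enzymes lower ones (−1.33 to −0.50), none called. The highest of these, Mgst1, had a mean of 98.1 CPM in Gfi1-KO and of 20.1 CPM without its replicate 2, against 25.4 CPM in Gfi1-WT. That replicate was the library with high granulocyte and mast cell markers. Higher values were also fitted for 4 of 7 peroxiredoxins and sulfiredoxin, 3 of 5 genes of the thioredoxin system and 2 of 4 glutaredoxins. The counts were 3 of 4 for glutathione synthesis and reduction, 1 of 4 for glutathione peroxidases and 2 of 5 for redox regulators. For superoxide dismutases and catalase the count was 1 of 3, and over all genes 48.1% had higher values.

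The variant allele was compared with the usual human allele, GFI1-36N against GFI1-KI. No gene of the 39 changed at an adjusted p under 0.05 by edgeR (0% of all genes), with a lowest adjusted p of 0.981. At an unadjusted p under 0.05 there were 2 of 39, Txnrd2 and Prdx5, against 4.6% of all genes. With transcripts summed there were also 2, Txnrd2 and Prdx6, and the share of all genes was not taken there. Txnrd2 had a fitted log2 fold change of −6.49 (SE 2.54, unadjusted 95% interval −11.98 to −1.01, edgeR adjusted p = 0.981), a value that rests on libraries at 0 and was −11.51 without GFI1-36N replicate 1. Prdx5 had one of 1.0 (SE 0.42, interval 0.10 to 1.91, edgeR adjusted p = 0.981), which fell to 0.61 without GFI1-36N replicate 3. With transcripts summed Prdx5 was at 0.79 (SE 0.39). Prdx6 was at 0.62 (SE 0.29, interval −0.01 to 1.25, edgeR adjusted p = 0.981), at 0.35 without GFI1-36N replicate 3 and at 0.67 with transcripts summed (SE 0.29). Higher values were fitted for 26 of 39 genes and lower ones for 13, with a median log2 fold change of 0.26, whereas over all genes the median was −0.08 and 46.3% were higher. Without GFI1-KD replicate 1, Gfi1-KO replicate 2 and GFI1-36N replicate 3 together, the median of the 39 was 0.12. All GFI1-36N libraries were higher than all GFI1-KI libraries for 3 genes, Prdx4, Prdx5 and Sod1 (3.32% of all genes), and lower for 1, Txnrd2 (6.27% of all genes). With transcripts summed, the libraries overlapped for Prdx5. By role, all 4 glutaredoxins had higher values by gene (0.05 to 2.52), as did 6 of 7 peroxiredoxins and sulfiredoxin, none called. The highest, of Glrx2, rests on the value by gene in GFI1-36N replicate 3. With transcripts summed Glrx2 was at 0.23, and 2 of 4 glutaredoxins and 6 of 7 peroxiredoxins and sulfiredoxin had higher values. In other roles, by gene, 3 of 4 glutathione transferases, 3 of 5 genes of the thioredoxin system and 3 of 5 redox regulators had higher values. The counts were 3 of 4 for glutathione synthesis and reduction and 2 of 3 for superoxide dismutases and catalase. They were 1 of 4 for glutathione peroxidases and 1 of 3 for heme, quinone and iron enzymes.

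The controls were compared with each other, GFI1-KI with Gfi1-WT, to see how far the human gene in the murine locus moved these genes. No gene of the 39 changed at an adjusted p under 0.05 (edgeR, 0% of all genes), and 0 of 39 had an unadjusted p under 0.05, against 2.09% of all genes. With transcripts summed 1 had an unadjusted p under 0.05, Txnip (log2 fold change −1.94, SE 0.75), and the share of all genes was not taken there. Higher values were fitted for 15 genes and lower ones for 24, with a median log2 fold change of −0.23 (0 over all genes). All GFI1-KI libraries were higher for 0 genes (4.45% of all genes) and lower for 4, Cat, Nfe2l2, Prdx6 and Txnip (4.19% of all genes). With transcripts summed, the libraries overlapped for Prdx6. Txnip had a log2 fold change of −1.78 (SE 0.82, unadjusted 95% interval −3.55 to 0.0011, edgeR adjusted p = 1) and Cat of −1.09 (SE 0.54, interval −2.27 to 0.08, edgeR adjusted p = 1), which was −0.68 without GFI1-KI replicate 1. The Txnip gap between the controls (mean 457 ± 229 CPM in Gfi1-WT and 134 ± 38.7 CPM in GFI1-KI, SD, n = 3 each) was larger on the log2 scale than its gaps in the other comparisons, and the signs of its values in GFI1-KD and Gfi1-KO changed when the control genotypes were exchanged, to −0.66 and 0.23. The 3 comparisons that use GFI1-KI share its libraries, and so do the 2 that use Gfi1-WT.

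**Figure D3:**
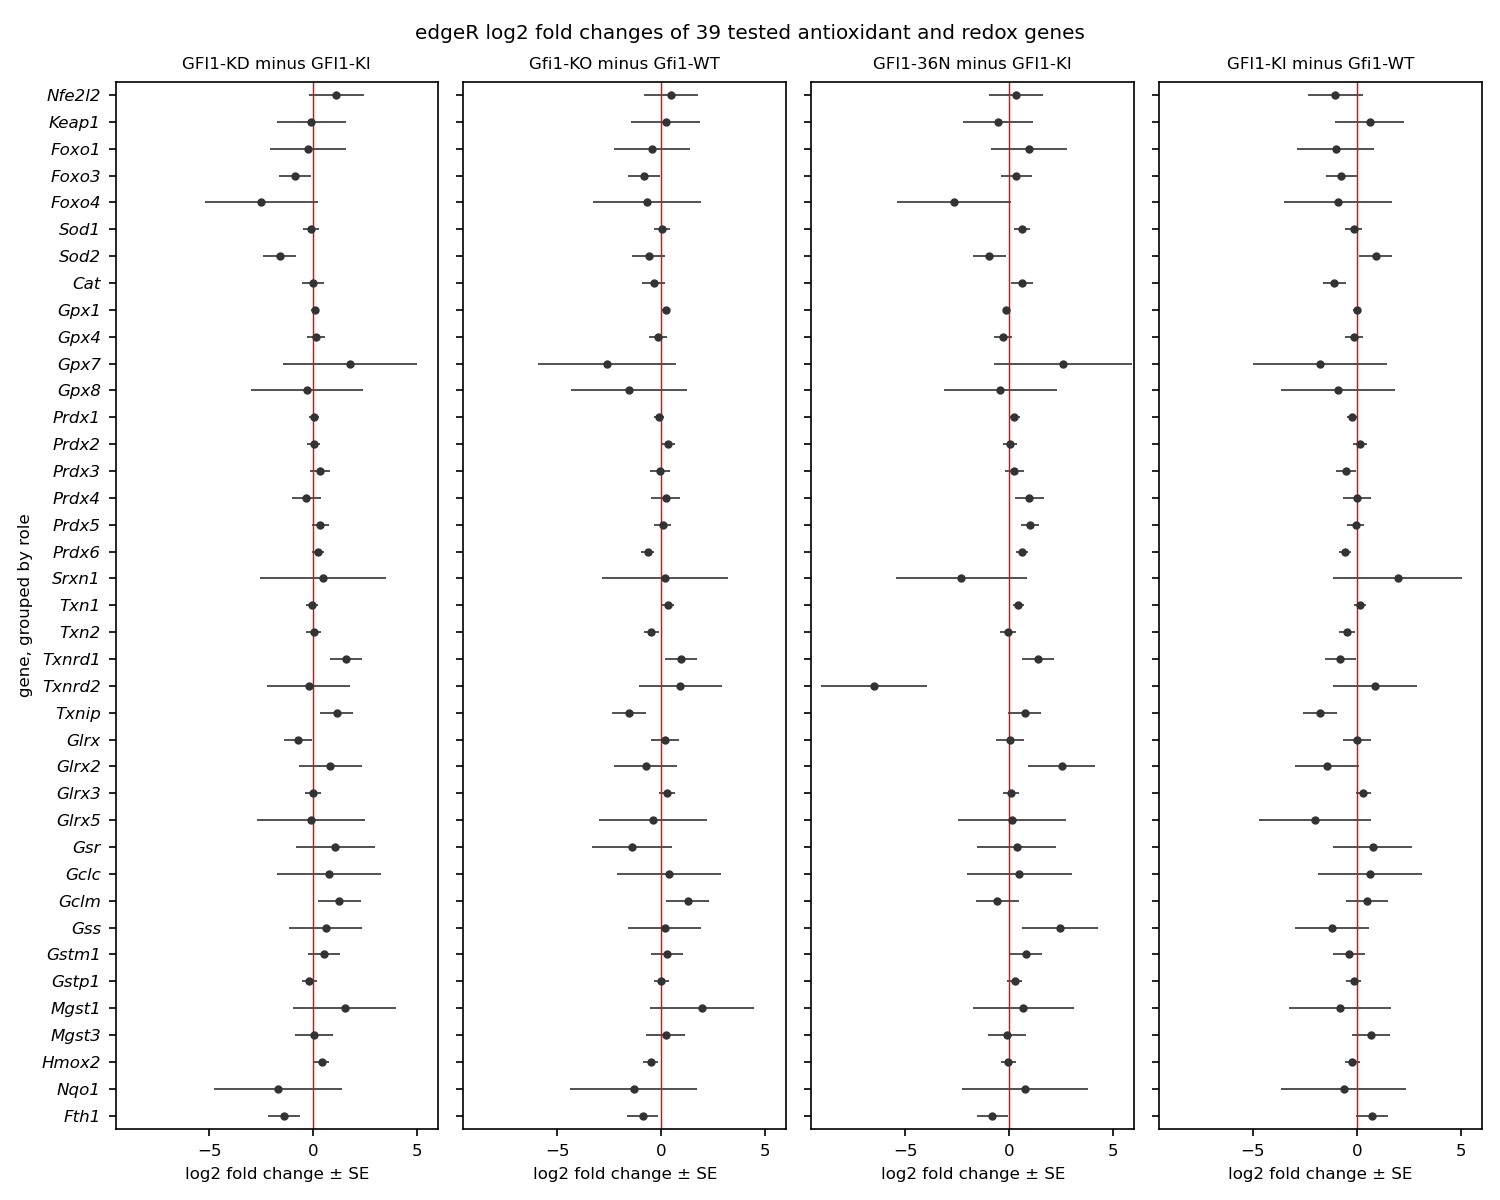
Log2 fold change ± SE (edgeR, 15 libraries in 1 fit) of the 39 tested genes, grouped by role, in the 4 comparisons of genotypes, with a red line at 0. Gpx1, Prdx1 and Prdx2 sit close to 0 with short bars, Txnrd2 is at −6.49 in GFI1-36N minus GFI1-KI with the lowest value of all, and no gene passes an adjusted p of 0.05.

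The effect of low GFI1 and the effect of its loss were then set against each other, as the log2 fold change of GFI1-KD over GFI1-KI less that of Gfi1-KO over Gfi1-WT. Of the 39 genes 0 differed at an adjusted p under 0.05 (edgeR, 0% of all genes) and 1 at an unadjusted p under 0.05, Txnip (3% of all genes). The difference was 2.66 for Txnip (SE 1.15, unadjusted 95% interval 0.18 to 5.15, edgeR adjusted p = 0.9998) and 0.89 for Prdx6 (SE 0.41, interval −0.0027 to 1.78). With transcripts summed it was 2.37 for Txnip (SE 1.04). With Y-linked reads in the fit it was 1.65 (SE 1.09). Without GFI1-36N replicate 3 that fit gave 2.51, with GFI1-KD set by its replicate 2 alone. In a test of any difference among the 5 genotypes, 0 of 39 had an adjusted p under 0.05 (0% of all genes) and 0 an unadjusted p under 0.05 (2.67% of all genes).

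Of the other tools, DESeq2 called 1.07 to 2.64% of all genes, where edgeR and limma-trend called 0%. DESeq2 called 0 of 39 genes in GFI1-KD minus GFI1-KI (1.28% of all genes), 0 in Gfi1-KO minus Gfi1-WT (1.45%), 1 in GFI1-36N minus GFI1-KI (2.64%), which was Txnrd2 (log2 fold change −6.56, adjusted p = 0.0149), and 0 in GFI1-KI minus Gfi1-WT (1.07%). Its counts at an unadjusted p under 0.05 were 3, 0, 3 and 2 of 39 in the same order. Limma-trend called 0 of 39 in each of the 4 comparisons (0% of all genes), and 1, 1, 4 and 1 at an unadjusted p under 0.05. The share of all genes at that unadjusted threshold was not taken for either tool, so these counts are not read as a result.

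What these data could show differed between the genes. The median SE of a log2 fold change was 0.77 over the 39 genes and 1.62 over all genes in GFI1-KD minus GFI1-KI. The spread between libraries of a genotype followed the level. For the 7 genes over 250 CPM the median SD within genotypes of log2(CPM + 1) was 0.38, as over all genes of that level (0.38), and for the 12 genes at 100 to 250 CPM it was 0.51 (0.69 over all genes). For the 9 genes at 25 to 100 CPM it was 1.37 (1.64), and for the 11 under 25 CPM it was 1.68 (1.46). Txnip had the highest SD of the genes over 250 CPM, at 1.32, and Nfe2l2 the highest of those at 100 to 250 CPM, at 1.84. In both, GFI1-36N replicate 3 (11.2 and 0 CPM) was far below the other libraries of its genotype.

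**Figure D4:**
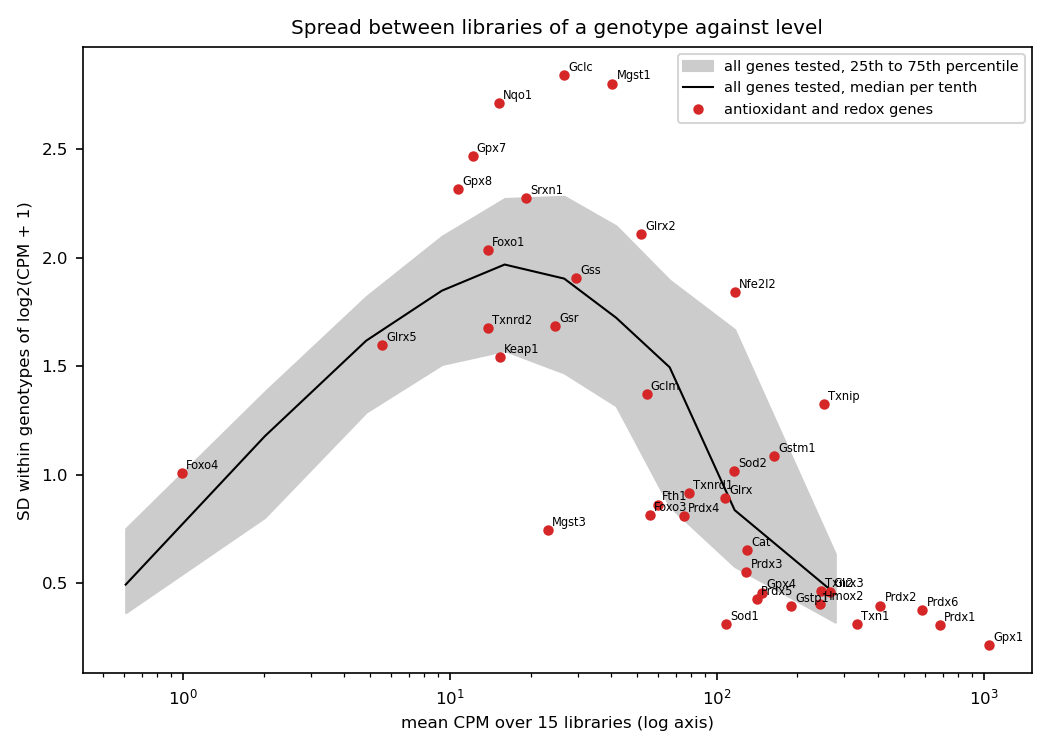
Spread between libraries of a genotype (SD within genotypes of log2(CPM + 1), vertical axis) against the mean CPM over 15 libraries (log axis), with the 39 tested genes as red points and all tested genes as a black line (median of genes in 10 bins by level) and grey band (25th to 75th percentile). Gpx1 has the lowest SD (0.22) of the 39 genes, and Nfe2l2 (1.84) and Txnip (1.32) lie above the band. Some genes of lower level also lie above it, among them Gclc (2.84), Mgst1 (2.80) and Nqo1 (2.71).

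From library to library, with genotype means removed, Nfe2l2 and Txnip had the highest correlation among the 19 genes with a mean of at least 100 CPM (r = 0.88 over 15 libraries, 0.66 without GFI1-36N replicate 3). Sod1 and Gpx1 followed with r = 0.85 (0.81 without that library), and Cat and Prdx3 had r = 0.71 (0.72). These values share library, depth and scaling and are a description.

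Genes that work beside the 40 were taken from lists of textbook members. Of 12 genes that supply NADPH, the electron donor of both reductases, 11 were tested. Of 9 genes of the NADPH oxidases, which make superoxide, 8 were tested. Of 32 other genes of redox defence all 32 were tested. No gene of these lists was called by edgeR in any comparison. Among the NADPH genes, 2 had higher and 9 lower values in GFI1-36N minus GFI1-KI, with a median log2 fold change of −1.36 (−0.08 over all genes). In GFI1-36N replicate 3, 5 of these 11 genes were at 0, and without that library 8 had lower and 3 higher values (median −0.80, against −0.03 over all genes). In GFI1-KD minus GFI1-KI 7 were higher and 4 lower (median 0.10), in Gfi1-KO minus Gfi1-WT 3 and 8 (median −0.51) and in GFI1-KI minus Gfi1-WT 6 and 5 (median 0.05). Ftl1, the ferritin light chain, was at 2375, 3366 and 2632 CPM in Gfi1-WT, 2241, 1943 and 2060 CPM in GFI1-KI, 2199, 1860 and 2052 CPM in GFI1-KD, 2107, 2376 and 1851 CPM in Gfi1-KO and 2527, 2342 and 3299 CPM in GFI1-36N. It was lower in all GFI1-KI libraries than in any Gfi1-WT library, with a log2 fold change of −0.42 (SE 0.16, edgeR adjusted p = 1). Slc3a2, the heavy chain of the cystine transporter, had a log2 fold change of −2.08 in GFI1-KD minus GFI1-KI (SE 0.95, edgeR adjusted p = 1). Selenow, a selenoprotein, had one of 0.53 in GFI1-36N minus GFI1-KI (SE 0.21, edgeR adjusted p = 0.981).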

How the data were processed

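RNA of sorted HSCs was extracted (RNeasy Micro), made into poly(A) libraries and sequenced from 1 end. The authors ran Salmon 1.9.0 (k-mer 31) on the GRCm38 cDNA set of Ensembl release 102, named genes with annotables 0.1.91 and tested with sleuth 0.30.0 in R 4.2.1. The tables they deposited, by gene and by transcript, hold estimated counts that are TPM rescaled to transcript length and library size, so a gene's value depends on the lengths of the transcripts it was assigned to.

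Values were rounded. The main test was the quasi-likelihood F test of edgeR 4.0.16 (R 4.3.3) with TMM scaling on all 15 libraries. Low genes were removed by filterByExpr (minimum count 10, minimum total 15), which left 13358, and a Benjamini-Hochberg adjusted p under 0.05 was called. The unadjusted 95% intervals used the SE of the fit, taken from the fold change and its F. The row with no symbol held 0.00679 to 0.0719% of counts and was left out. Libraries held 16.2 to 20.6 M, and the common dispersion was 1.94. The code was tested on simulated data. None of 105 pairs of libraries had identical values. Only 1 of 30 pairs of libraries with the same number correlated above 0.1, and the numbers pair no samples here.

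The members and lists were chosen with earlier results of these data known. By rule, the text names the 6 genes of highest mean CPM and, per comparison, up to 2 genes of lowest p in each direction. Other genes were described by role or by the separation of their libraries after their values were seen. The alternatives tried were a fit of the compared genotypes alone, the replicate block, leaving out libraries, other filters and normalizations, DESeq2 1.42.0, limma-trend (limma 3.58.1, log2(CPM + 1)) and the other control genotype. A Y-linked covariate (also without GFI1-36N replicate 3), leaving out 3 libraries or GFI1-36N replicate 3 alone, and the transcript table summed by GENCODE M21 names (98.9% of 117135 transcripts matched) were added after seeing the data. Coordinates are of GENCODE M21 on GRCm38, and promoter windows of RefSeq on GRCm38.p6.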

Additional observations from a re-analysis of the deposited data

Results flagged for a closer look

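Txnip stood out because its values in GFI1-KD and Gfi1-KO went in opposite directions, each against its own control. Every GFI1-KD library was above every GFI1-KI library and every Gfi1-KO library was below every Gfi1-WT library. The controls differed as well, with −1.78 in GFI1-KI minus Gfi1-WT. All GFI1-KD libraries (261 to 305 CPM) were also below all Gfi1-WT libraries (315 to 722 CPM). When the control genotypes were exchanged, the signs of both values changed. The difference of the 2 effects was 2.66 on the log2 scale (SE 1.15, edgeR adjusted p = 0.9998), so it did not pass the correction over all genes. With Y-linked reads in the fit, the difference was 1.65 (SE 1.09) and the GFI1-KD minus GFI1-KI value fell from 1.12 to 0.10. Without GFI1-36N replicate 3 that fit gave 2.51 and 0.97, with GFI1-KD set by its replicate 2 alone. Such an opposite separation was found in 39 of the 13358 genes tested (0.292%).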

How the results depend on the processing

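Of the 39 genes, the number called stayed at 0 in every comparison under every alternative run, with 1 exception. DESeq2 called 1 of them in GFI1-36N minus GFI1-KI, Txnrd2 (log2 fold change −6.56, adjusted p = 0.0149). Named log2 fold changes changed sign in 6 cases. Leaving out 1 library at a time, Sod2 ranged from −1.34 to 0.0082 in GFI1-36N minus GFI1-KI and from −0.061 to 1.87 in GFI1-KI minus Gfi1-WT, with the change of sign without GFI1-KI replicate 2. With the other control, Txnip went to −0.66 in GFI1-KD and to 0.23 in Gfi1-KO. With transcripts summed, Gclm went to −0.35 in Gfi1-KO minus Gfi1-WT. With Y-linked reads in the fit and without GFI1-36N replicate 3, the median of the 39 genes in GFI1-36N minus GFI1-KI was −0.16 and Prdx5 was −0.26 there, in a fit where both remaining GFI1-36N libraries have high Y-linked reads and no GFI1-KI library does. With the replicate block, 0 of the 39 genes were called in each comparison, and their median log2 fold change in GFI1-KD minus GFI1-KI was 0.07. Leaving out 1 library at a time, that median ranged from 0.03 to 0.19 in GFI1-KD minus GFI1-KI, from −0.11 to 0.16 in Gfi1-KO minus Gfi1-WT, from 0.12 to 0.42 in GFI1-36N minus GFI1-KI and from −0.29 to −0.10 in GFI1-KI minus Gfi1-WT. With 3 libraries a genotype, the SE of a log2 fold change was 0.18 for Gpx1 and 2.54 for Txnrd2 in GFI1-36N minus GFI1-KI.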
